A study of Mus musculus with 3 samples.

Results

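The genes described here are Apoe, Lpl, Abca1, Abcg1, Trem2, Tyrobp, Gpnmb, Spp1, Fabp5 and Cst7, 10 named genes of lipid uptake, lipid efflux and the damage-associated phagocyte state. They were chosen by name, and all 10 were among the 22238 genes listed in all of the libraries. RNA-Seq was done on 3 libraries from female C57BL/6J mice of 10 to 12 weeks with EAE, a mouse model of multiple sclerosis. All 3 libraries are marked WT, or wild type, in their titles. EAE was induced with MOG peptide in complete Freund's adjuvant and 250 ng of pertussis toxin at 2 and 24 hours, and cells were sorted at days 14 to 15. Every mouse was immunized, so no library shows these cells without disease.

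Bone marrow monocytes, called marrow monocytes below, were CD45+ CD11b+ Ly6Chi Ly6G- CD11c- cells, pooled from 13 mice in 2 experiments. Spinal cord monocytes, called cord monocytes, were CD45+ CD11b+ CD64+ Ly6Chi Ly6G- cells, and spinal cord monocyte-derived APCs, here APCs, differed from them in the gate by being Ly6Clow/-. Each of the spinal cord populations was pooled from 18 mice in 3 experiments. Spinal cord tissue was digested with enzymes and separated on Percoll, whereas marrow was flushed out and its monocytes enriched with a kit before sorting. Tissue and cell handling thus cannot be told apart between marrow and spinal cord cells. Cells of intermediate Ly6C in the spinal cord were not collected. For the APC library a label on the source of the cells names the bone marrow, whereas its title and tissue label name the spinal cord, and the latter were followed. Each population was 1 library, so no difference below has a replicate check and no p-value is given. In pooled RNA, fewer cells of a type and less RNA per cell cannot be told apart.

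Apolipoprotein E coats lipoprotein particles and carries cholesterol and phospholipid between cells. The membrane transporters ABCA1 and ABCG1 pass cholesterol from the cell to such particles, and their genes are well-known targets of the oxysterol-sensing LXR receptors. TREM2 is a surface receptor that binds lipids and apolipoproteins and signals through the adaptor TYROBP, and in microglia near damaged tissue it takes part in a programme in which Apoe, Lpl, Gpnmb, Spp1, Fabp5 and Cst7 are known to rise. Myelin is rich in cholesterol, and phagocytes that take up myelin debris must store or export it.

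Promoter sequences were found for 6 of the 10 genes, as 9 windows of 300 bases that run from 250 bases before a transcript start to 50 bases after it (RefSeq, GRCm38.p6). Each window was searched on both strands for CACGTG, the E-box, for AGGTCA, a core motif of nuclear receptors, and for TGACTCA, the AP-1 motif, which was added after the sequences were read. None of the 3 motifs contains another. The windows below are those of the 3 genes with a match, since Abca1 and Gpnmb had, after Spp1, the largest changes of the 10 genes from bone marrow to spinal cord and Trem2 encodes the receptor of the group. The capitals mark the match, and each sequence is written 5′ to 3′ on the strand of the gene.
Abca1 (chr4:53159846-53160145, minus strand): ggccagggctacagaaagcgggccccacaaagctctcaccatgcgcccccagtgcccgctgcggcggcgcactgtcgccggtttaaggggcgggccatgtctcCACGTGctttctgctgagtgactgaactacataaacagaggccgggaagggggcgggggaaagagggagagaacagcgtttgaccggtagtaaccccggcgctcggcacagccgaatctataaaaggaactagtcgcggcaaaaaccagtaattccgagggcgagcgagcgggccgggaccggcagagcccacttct
Trem2 (chr17:48346151-48346450, plus strand): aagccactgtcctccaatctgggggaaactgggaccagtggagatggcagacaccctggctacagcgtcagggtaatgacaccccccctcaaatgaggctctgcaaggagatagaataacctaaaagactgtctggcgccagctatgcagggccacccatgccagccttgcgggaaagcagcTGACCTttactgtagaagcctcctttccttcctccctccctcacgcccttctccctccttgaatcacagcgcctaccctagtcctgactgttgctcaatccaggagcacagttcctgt
Gpnmb (chr6:49036268-49036567, plus strand): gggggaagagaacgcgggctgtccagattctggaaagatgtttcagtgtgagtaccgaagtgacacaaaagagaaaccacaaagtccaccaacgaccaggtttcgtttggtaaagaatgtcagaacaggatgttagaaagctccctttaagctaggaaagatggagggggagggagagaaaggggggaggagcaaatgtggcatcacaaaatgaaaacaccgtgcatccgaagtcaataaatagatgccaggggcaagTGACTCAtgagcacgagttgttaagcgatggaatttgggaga
The E-box of Abca1 began 147 bases before the start, and 7.15% of all 32851 windows of this length held an E-box. The match of Trem2, TGACCT, is AGGTCA read on the other strand and began 68 bases before the start, and 16.3% of all windows held this motif. The AP-1 motif of Gpnmb began 8 bases after the start, and 5.2% of all windows held it. The windows of Apoe, Spp1 and Cst7 held none of these motifs. A match describes the sequence and does not show that a factor bound there. Only exact matches of these letters were counted. A window without a match, or with a match to another motif, can thus still hold a variant of a motif.

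Levels are given as TPM, a share of transcripts corrected for length, rescaled to the same total in each library over the common genes, with a 95% Wilson interval from the gene's share of the reads. The log2 fold change (log2FC) of a step was taken from reads scaled by size factors and is given with a 98% interval. Length-corrected reads, an alternative, are reads divided by the effective length that the authors' quantification gave to the gene in each library. A gene was active in a step where either of its 2 libraries had over 3 TPM, and was called where its interval lay beyond a 2-fold change. The intervals hold the error of counting and nothing else, and reads that are copies of the same molecule are not independent. The first step runs from marrow to cord monocytes and the second from cord monocytes to APCs, so both steps share the spinal cord monocyte library.

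In the first step 8 of the 10 genes were called higher, Lpl was called lower and Tyrobp was not called. Of 10072 active genes, 13.6% were called higher and 11.0% lower. In the second step Gpnmb and Cst7 were called higher and none of the 10 lower, with 1.94% of 9734 active genes called higher and 1.66% lower. All 10 were active in both steps. Their median log2FC was 2.13 in the first step, beside -0.17 for all active genes, and 0.48 in the second, beside -0.03. The summed TPM of the 10 genes was 4872 in marrow monocytes, 12525 in cord monocytes and 14672 in APCs. Apoe made 1538, 8392 and 10457 TPM of it and Tyrobp 3077, 2597 and 1675 TPM, so the sum mainly follows Apoe.

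**Figure D1:**
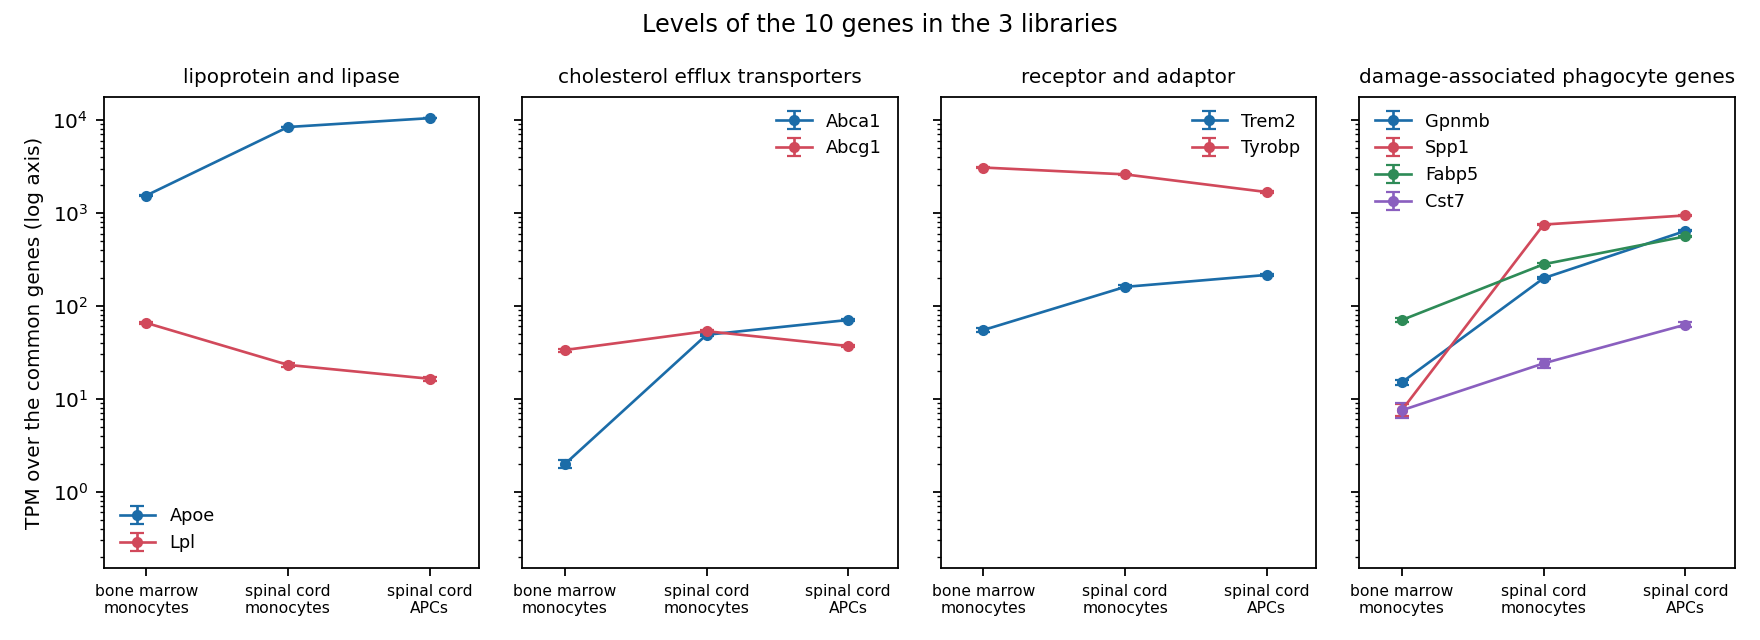
TPM over the common genes (log axis) of the 10 genes in marrow monocytes, cord monocytes and spinal cord APCs, 1 library each, in 4 panels by role. Bars are 95% counting intervals, and most are narrower than the points. Apoe stands at 1538 TPM on the left and 10457 TPM on the right, Lpl at 65.5 and 16.4 TPM, and Abca1 and Abcg1 lie close together in cord monocytes at 48.8 and 53.4 TPM.

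Apoe (ENSMUSG00000002985.16) lies on chromosome 7 of GRCm38, from 19696109 to 19699188 on the minus strand. It had 1538 TPM in marrow monocytes (95% interval 1518 to 1559), 8392 TPM in cord monocytes (8340 to 8443) and 10457 TPM in APCs (10413 to 10501). It was the most abundant of the 10 genes in both spinal cord libraries, ranking 8 and 9 among the common genes, against 108 in the bone marrow. In APCs it made up 1.05% of all TPM.

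From marrow to cord monocytes Apoe was called higher, with a log2FC of 2.64 (98% interval 2.62 to 2.67), or 6.25-fold. In the second step its reads were 101363 and 215336, a log2FC of 0.94 (98% interval 0.93 to 0.95), short of the call. The size of this second difference depended on the scale. The effective length of Apoe was 623 bases in cord monocytes and 988 in APCs, and on length-corrected reads the log2FC was 0.40. The APC library was quantified on a different set of transcripts, and GENCODE M21 lists 11 transcripts of Apoe, of which 9 are coding and 456 to 1408 bases long. The part of the transcript set in this difference was not tested.

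Lpl (ENSMUSG00000015568.16), which encodes lipoprotein lipase, the enzyme that releases fatty acids from lipoprotein triglycerides, went the other way. The gene spans chromosome 8 from 68880491 to 68907448 on the plus strand. Its level was 65.5 TPM (95% interval 63.8 to 67.3) in marrow monocytes, 23.2 TPM (22.1 to 24.3) in cord monocytes and 16.4 TPM (15.6 to 17.3) in APCs. The libraries did not overlap by counting error. It was called lower in the first step, with a log2FC of -1.21 (98% interval -1.30 to -1.12), and was the lowest of the 10 genes in both spinal cord populations, although its interval overlapped that of Cst7 in cord monocytes. The second step had -0.50 (98% interval -0.62 to -0.38) and was not called. The ratio of Apoe to Lpl, in TPM, was 23.5 in marrow monocytes, 362 in cord monocytes and 637 in APCs.

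Abca1 (ENSMUSG00000015243.4), the transporter that loads cholesterol onto lipid-poor apolipoproteins, was the lowest of the 10 genes in marrow monocytes and held an E-box in its promoter window. It lies on chromosome 4 from 53030787 to 53159895 on the minus strand. It had 1.98 TPM in the bone marrow (95% interval 1.80 to 2.18), 48.8 TPM in cord monocytes (47.8 to 49.8) and 70.5 TPM in APCs (69.4 to 71.6). The bone marrow level was under the 3 TPM of an active gene. The log2FC of the first step was 4.85 (98% interval 4.68 to 5.02), or 28.8-fold, and that of the second was 0.58 (98% interval 0.54 to 0.63) and not called.

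Abcg1 (ENSMUSG00000024030.7), the transporter that passes cholesterol to mature lipoprotein particles, changed less. Its position is chromosome 17 from 31057675 to 31117988 on the plus strand. It had 33.5 TPM (95% interval 32.2 to 34.8), 53.4 TPM (51.8 to 54.9) and 36.9 TPM (35.8 to 38.1) in marrow monocytes, cord monocytes and APCs, highest in cord monocytes. It was called higher in the first step, with a log2FC of 1.22 (98% interval 1.14 to 1.30). Its effective length grew from 3799 to 4441 bases in this step, and on length-corrected reads the log2FC was 0.89 and the call was lost. Scaling by total reads also ended the call, at 1.06, since it shifted all log2FC values of this step by -0.16. The second step had -0.27 (98% interval -0.35 to -0.20) and was not called. A small rRNA gene, Gm25447, overlaps Abcg1 on the same strand over 128 bases.

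The balance of the transporters turned over between populations. Abca1 stood at 0.0591 of Abcg1 in marrow monocytes (95% interval 0.0534 to 0.0655), at 0.914 in cord monocytes (0.882 to 0.947) and at 1.91 in APCs (1.84 to 1.98), as ratios of TPM. In TPM, Abcg1 was thus the higher of the pair in both monocyte libraries and Abca1 in the APC library. The ratios rest on the effective lengths, and that of Abcg1 was 3799, 4441 and 5470 bases in marrow monocytes, cord monocytes and APCs. The intervals do not cover this, and its part in the change of order was not tested.

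Trem2 (ENSMUSG00000023992.14), the lipid receptor whose promoter window holds TGACCT, had 54.9 TPM (95% interval 51.7 to 58.3) in marrow monocytes, 159.9 TPM (153.8 to 166.2) in cord monocytes and 215 TPM (208 to 222) in APCs. It lies on chromosome 17 from 48346401 to 48354147 on the plus strand. It was called higher in the first step, with a log2FC of 1.76 (98% interval 1.63 to 1.88), and was not called in the second, with 0.38 (0.30 to 0.47).

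Tyrobp (ENSMUSG00000030579.10), which encodes the adaptor that TREM2 shares with many other myeloid receptors, was the most abundant of the 10 genes in marrow monocytes. The gene spans chromosome 7 from 30413760 to 30417585 on the plus strand. Its level was 3077 TPM (95% interval 3037 to 3117) in marrow monocytes, 2597 TPM (2558 to 2637) in cord monocytes and 1675 TPM (1646 to 1705) in APCs. Its log2FC in the first step was 0.02 (98% interval -0.02 to 0.05), which turned to -0.14 with total reads and to -0.02 on length-corrected reads. In the second step it was -0.59 (98% interval -0.63 to -0.55), lower than for all but 9.62% of active genes, yet not called. In TPM, there was 56.1 times as much Tyrobp as Trem2 in marrow monocytes (95% interval 52.7 to 59.6), 16.2 times in cord monocytes (15.6 to 16.9) and 7.79 times in APCs (7.51 to 8.08).

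**Figure D2:**
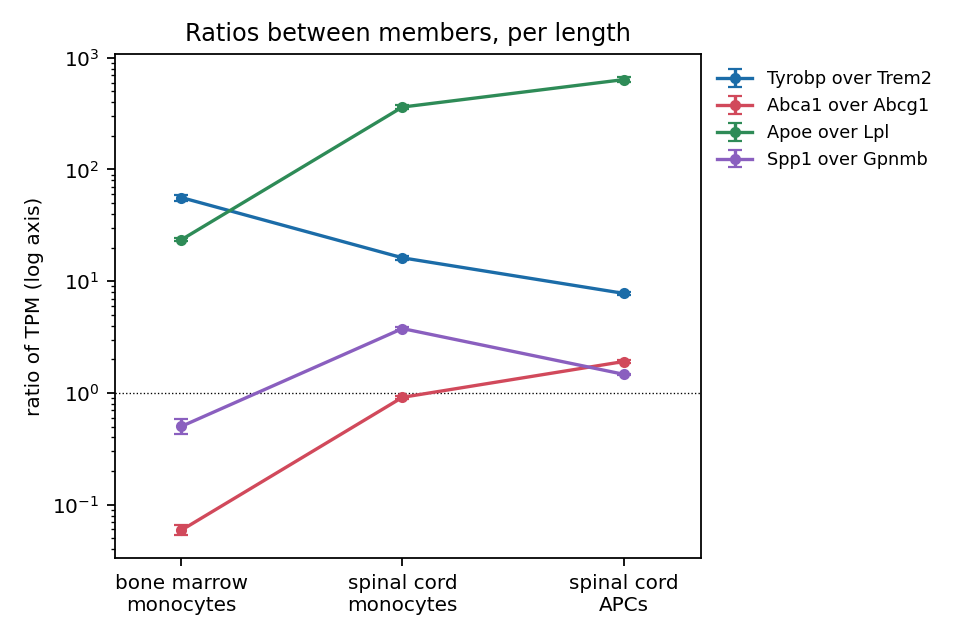
Ratios of TPM between pairs of the 10 genes (log axis) in the 3 libraries, with 95% counting intervals and a dotted line where the genes of a pair are equal. Tyrobp over Trem2 falls from 56.1 to 7.79, Apoe over Lpl rises from 23.5 to 637, Abca1 over Abcg1 crosses the line between cord monocytes and APCs, and Spp1 over Gpnmb is highest in cord monocytes.

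Gpnmb (ENSMUSG00000029816.10), a transmembrane glycoprotein of lysosomes and the cell surface in lipid-laden macrophages, was called higher in both steps. It lies on chromosome 6 from 49036546 to 49070929 on the plus strand, and its promoter window held the AP-1 motif. It had 15.1 TPM (95% interval 14.1 to 16.0) in marrow monocytes, 198.5 TPM (194.8 to 202.2) in cord monocytes and 639.8 TPM (632.1 to 647.7) in APCs. Its first step had a log2FC of 4.0 (98% interval 3.89 to 4.12), and its second step reached 1.07 (98% interval 1.03 to 1.11). The second value was close to the 2-fold limit on reads but 1.77 on length-corrected reads, with an effective length of 2898 bases in cord monocytes and 1940 in APCs. The length correction lowered the value of Apoe and raised that of Gpnmb, in each case by more than the width of its counting interval.

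Spp1 (ENSMUSG00000029304.14), which encodes the secreted phosphoprotein osteopontin, had the largest first step of the 10 genes. Its position is chromosome 5 from 104435118 to 104441050 on the plus strand. It had 186 reads in marrow monocytes, or 7.56 TPM (95% interval 6.55 to 8.73), against 749 TPM (737 to 760.3) in cord monocytes and 939 TPM (927 to 951) in APCs. The log2FC was 6.91 (98% interval 6.67 to 7.16), higher than for 98.3% of active genes, and 0.33 (98% interval 0.29 to 0.36) in the second step, which was not called. An unclassified gene, Gm42793, overlaps Spp1 on the same strand over 1252 bases, so reads there could be split. Spp1 stood at 0.502 of Gpnmb in marrow monocytes, 3.77 times in cord monocytes and 1.47 times in APCs, in TPM.

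Fabp5 (ENSMUSG00000027533.10), a cytosolic carrier of fatty acids, lies on chromosome 3 from 10012548 to 10016607 on the plus strand. It had 70.4 TPM (95% interval 66.4 to 74.7), 280.1 TPM (271.5 to 288.9) and 559 TPM (547 to 571) in marrow monocytes, cord monocytes and APCs. It was called higher in the first step, with a log2FC of 2.30 (98% interval 2.19 to 2.41). The second step fell just short of the call at 0.97 (98% interval 0.90 to 1.03), and was called at 1.08 on length-corrected reads, a correction that shifted the log2FC values of this step by a median of 0.06 over all active genes. Its near-copy Fabp5l2 had 0 reads in both monocyte libraries and was not listed for APCs.

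Cst7 (ENSMUSG00000068129.5), which encodes cystatin F, an inhibitor of lysosomal cysteine proteases, was the least deeply covered of the 10 genes, with 117, 331 and 963 reads. The gene spans chromosome 2 from 150570415 to 150578944 on the plus strand. Its level was 7.52 TPM (95% interval 6.28 to 9.01) in marrow monocytes, 24.1 TPM (21.6 to 26.8) in cord monocytes and 62.7 TPM (58.9 to 66.8) in APCs, and none of these intervals overlap. Its first step had a log2FC of 1.95 (98% interval 1.60 to 2.32), and its second step reached 1.39 (98% interval 1.18 to 1.61). The latter was the largest second step of the 10 genes on reads, higher than for 98.1% of active genes, followed by Gpnmb (97.0%), Fabp5 (96.4%) and Apoe (96.2%).

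**Figure D3:**
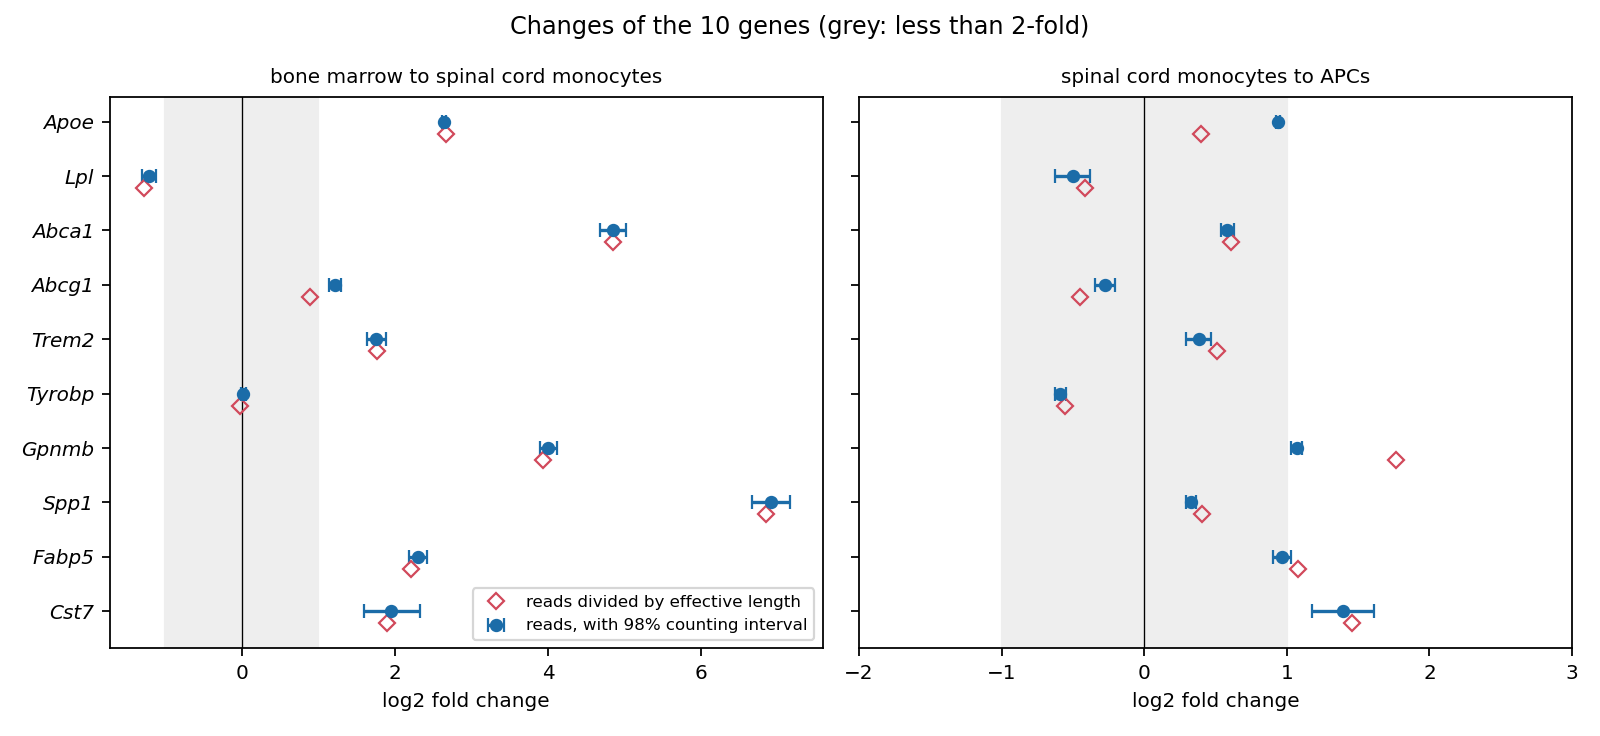
Log2 fold changes (log2FC) of the 10 genes from marrow to cord monocytes (left) and from cord monocytes to APCs (right), which share the spinal cord monocyte library. Filled points are reads with 98% counting intervals, open diamonds are length-corrected reads, and grey marks changes under 2-fold. On the right, Gpnmb moves from 1.07 to 1.77 and Apoe from 0.94 to 0.40 with the length correction.

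By level, the order of the 10 genes changed between the populations. In marrow monocytes it ran Tyrobp, Apoe, Fabp5, Lpl, Trem2, Abcg1, Gpnmb, Spp1, Cst7 and Abca1, with overlapping intervals for Fabp5 and Lpl and for Spp1 and Cst7. In APCs it ran Apoe, Tyrobp, Spp1, Gpnmb, Fabp5, Trem2, Abca1, Cst7, Abcg1 and Lpl, and no neighbours overlapped.

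The genes with the most similar pattern were found by the distance between their pairs of log2FC values over the 3 libraries. Axl was nearest to Abca1, at a distance of 0.039, with 6.08, 159.6 and 233 TPM in marrow monocytes, cord monocytes and APCs, followed by Tnfsf9. Slc7a2 and Slc7a11 were nearest to Spp1, and Slc7a2 had 1.39, 153 and 200 TPM. Pld3 and Grap2 were nearest to Apoe, and Pld3 had 16.5, 72.0 and 151 TPM.

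P2ry12, which is also on the list of microglia markers below, was nearest to Cst7, with 10.1, 36.0 and 85.6 TPM and a distance of 0.229, followed by Gm11032. Trbv20, listed at 0 TPM in marrow monocytes, and Phyhd1 were nearest to Gpnmb. The nearest genes were Fam49a and Dyrk3 for Lpl, Aifm2 and Wsb2 for Abcg1, Bcl2 and Rhox8 for Trem2, and Clmp and Rapgef5 for Fabp5.

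Some other genes of the LXR pathway and of cholesterol handling were called higher in the first step. Of 18 active genes of this list, 6 were called higher and none lower, with a median log2FC of 0.47. Nr1h3, which encodes LXR alpha, rose from 17 reads (0.503 TPM) to 338 reads (11.5 TPM), a log2FC of 4.72 (98% interval 3.97 to 5.62), while Nr1h2, which encodes LXR beta, named after its values were seen, had 72.3 and 114.5 TPM and was not called. Ch25h, the enzyme that makes 25-hydroxycholesterol, had 0 reads in marrow monocytes and 169 in cord monocytes, at least 77.5-fold higher against a floor of 3 reads.

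Pltp, a phospholipid transfer protein, rose from 4.23 to 16.2 TPM, with a log2FC of 2.19. Apoc2, a cofactor of lipoprotein lipase, rose from 236 to 472 TPM, with 1.26, and Mylip and Apoc4 were also called, the former not with total reads. Npc2, which carries cholesterol out of lysosomes and was the most abundant gene of the list, had 412 and 595 TPM and was not called. In the second step 1 of 18 was called, Apoc4, which went from 84 to 21 reads. Its effective length was 1101 and 299.6 bases, and on length-corrected reads its log2FC was -0.12 and the call was lost.

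Of 18 active genes of lipid uptake and storage, 9 were called higher in the first step and none lower, with a median of 1.03. Hilpda, an inhibitor of triglyceride breakdown on lipid droplets, rose from 3.43 to 162.0 TPM, a log2FC of 5.82 (98% interval 5.38 to 6.31). Fabp3, a relative of Fabp5, had 1 and 32 reads, with a log2FC of 4.74 and a wide interval of 2.65 to 8.27. Olr1, a receptor for oxidized LDL, rose from 4.44 to 141 TPM, with 3.87 on reads and 5.21 on length-corrected reads.

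The most abundant genes of this list were Plin2, which coats lipid droplets, with 233, 566 and 320.2 TPM, and Msr1, the macrophage scavenger receptor, with 237.6, 502.0 and 288 TPM in marrow monocytes, cord monocytes and APCs. Both were called higher in the first step. Their second steps, Plin2 first, had a log2FC of -0.43 and -0.37 on reads and -0.74 and -0.72 on length-corrected reads. Neither was called on either scale. From cord monocytes to APCs the effective length went from 1096 to 1481 bases for Plin2 and from 1298 to 1795 for Msr1. The part of the lengths in their lower TPM in APCs was not tested. In the second step Dgat2, an enzyme of triglyceride synthesis, was the 1 gene of 20 called, and fell from 56.2 to 19.3 TPM, a log2FC of -1.54 (98% interval -1.68 to -1.40). On length-corrected reads Cd36, a fatty acid receptor chosen after its values were seen, was called higher at 1.51 and Dgat1, an enzyme of triglyceride synthesis likewise chosen, was called lower at -1.19, and the first step had 10 genes called higher in place of 9.

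Of 13 genes of TREM2 signalling and related receptors, 2 were called higher and 1 lower in the first step, with a median of 0.06, and 3 and 2 on length-corrected reads. Trem1, an activating receptor that also signals through TYROBP, rose from 9.44 to 218 TPM, with a log2FC of 4.81 (98% interval 4.67 to 4.96), and had 140.2 TPM in APCs. Siglecf, a sialic acid receptor, rose from 0.768 to 3.16 TPM, with 2.31. Trem3 fell from 73.9 to 25.2 and then 8.12 TPM and was called lower in both steps, with -1.27 and -1.62. Syk, the kinase downstream of TYROBP, stood at 150.0, 136 and 132 TPM, and Vav1 at 155, 138 and 121 TPM, and neither was called.

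Of 24 other active genes of the damage-associated microglia programme, 15 were called higher and 1 lower in the first step, with a median of 2.26. Cd83, a surface glycoprotein of activated APCs, rose from 14 to 5234 reads, a log2FC of 8.94, Itgax, which encodes CD11c, had 7.55, and Csf1, a growth factor of macrophages, had 5.26. CD11c was a negative marker in the bone marrow gate alone, so the gates differed in the protein that Itgax encodes, and their part in its first step was not tested. Ank, a transporter of pyrophosphate, was called lower, from 23.0 to 4.14 TPM. Fth1, the ferritin heavy chain, was called higher and reached 19718 and 28659 TPM in cord monocytes and APCs, and Lyz2, lysozyme, had 34515, 14312 and 10443 TPM. Lyz2 was not called in the first step at -0.98, but was called lower on length-corrected reads (-1.05) and with total reads (-1.14).

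On length-corrected reads the first step had 16 called higher and 2 lower. In the second step 4 of 25 of these genes were called higher and 1 lower, with a median of 0.39. Itgax rose to 121 TPM, with a log2FC of 1.59 (98% interval 1.52 to 1.66). Cadm1, an adhesion molecule, rose from 97 to 321 reads, with 1.57, and Cd22, a sialic acid receptor, from 11.8 to 27.5 TPM, with 1.28. The 4th was Cd63, a tetraspanin of late endosomes named after its values were seen, with 1.10. Lilrb4a, an inhibitory receptor, fell from 709 to 155 TPM, with -3.07 on reads and -2.11 on length-corrected reads. It has a close paralog, so its reads could be split differently between the transcript sets, which was not tested.

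**Figure D4:**
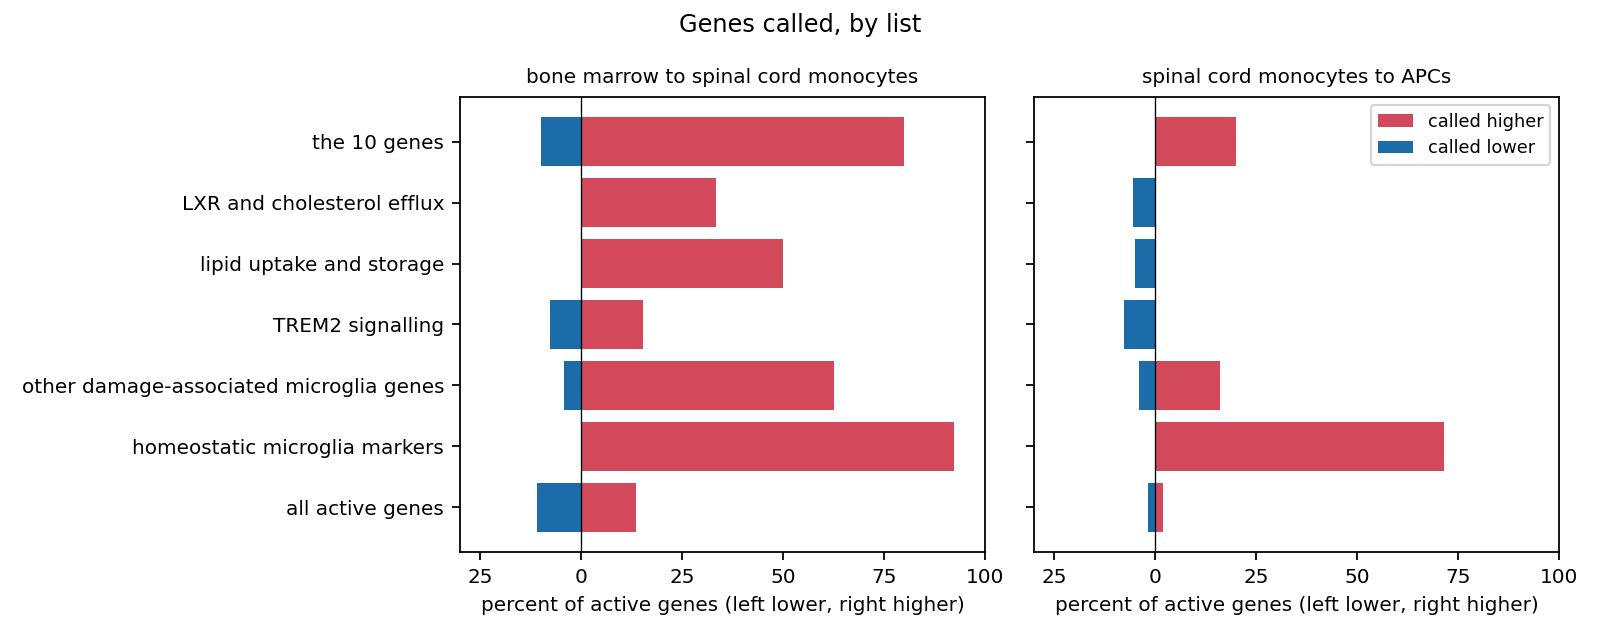
Percent of active genes called higher (right of 0) and called lower (left of 0) in each step, for the 10 genes, 4 lists of related genes, the homeostatic microglia markers and all active genes. In the first step 13.6% of all active genes are called higher, against 8 of the 10 genes, and in the second step 10 of 14 microglia markers are called higher, against 1.94% of all active genes.

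Markers of other cells moved beside these genes. Of 13 active markers of homeostatic microglia, 12 were called higher in the first step, and of 14, 10 were called higher in the second. Their summed TPM was 322 in marrow monocytes, 645 in cord monocytes and 1339 in APCs, and all 14 were above 3 TPM in APCs. Sparc had 0.901, 53.2 and 148 TPM, and Cx3cr1 had 88.5, 40.5 and 108 TPM. Microglia also express the genes of the damage-associated programme, and the CD45 gate was set to leave them out. The part of microglia RNA in the rise of Gpnmb and Cst7 in the second step, and of the other genes in the first, was not tested.

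Summed over 8 astrocyte markers, TPM was 6.73, 42.3 and 64.6 in marrow monocytes, cord monocytes and APCs, of which Aldoc made 2.56, 22.4 and 43.7. All 4 active markers were called higher in the first step. Their reads went from 7 to 256 (Gfap), 0 to 154 (Slc1a2), 9 to 123 (Gja1) and 86 to 778 (Aldoc). Of 5 active in the second step only Slc1a2 was called higher, with 154 and 431 reads. On length-corrected reads 3 were called higher in the first step and none in the second. Aqp4, a defining marker, had 0, 13 and 21 reads. Astrocytes express Apoe, and the spinal cord gates were set on CD45, CD11b and CD64. Their part in the 8392 TPM of Apoe in cord monocytes was not tested. The 6 markers of CNS-associated macrophages summed to 15.7, 36.8 and 51.1 TPM. Of their active genes 2 of 4 were called higher in the first step, Mrc1 (2.48) and Siglec1 (3.49), and 1 of 3 in the second, again Mrc1, which had 159, 649 and 1915 reads, while Lyve1 had 0, 2 and 0 reads. The part of these macrophages in the changes of the 10 genes was not tested. The 8 oligodendrocyte markers summed to 102.9, 79.6 and 77.9 TPM, with Mog at 0, 4 and 3 reads.

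Conventional dendritic cell markers summed to 40.8, 21.3 and 28.3 TPM, but the sum followed Flt3, which was called lower in the first step, from 37.8 to 3.65 TPM. Batf3 (2.31) and Clec9a (4.41) were called higher in that step, and Zbtb46 (31 and 241 reads, 2.79) and Itgae (44 and 243 reads, 2.30) in the second, and their part in the results was not tested. Endothelial markers summed to 18.6, 97.1 and 60.7 TPM, and T and B cell markers to 9.04, 45.7 and 65.1 TPM, with 4 of 5 active genes of each list called higher in the first step and none called in the second. Neutrophil markers stood at 532.5, 73.3 and 276 TPM, with Ngp at 185.8, 24.3 and 156.8 TPM. Of 7 active neutrophil markers 5 were called lower and 2 higher in the first step. In the second step 3 of 6 were called higher, Ngp (2.69), Ltf (2.44) and Retnlg (1.83), and 1 lower, Elane. The part of neutrophil RNA in the results was not tested. All 7 classical monocyte markers were above 3 TPM in every library, and their sum was 35339, 17552 and 6045 TPM. Chil3 made 24589, 9189 and 3902 TPM of it. In the first step 3 were called lower and 1 higher, Fcgr1 (1.90), and in the second 5 were called lower. Fcgr1 encodes CD64, which was part of the spinal cord gates alone. Ly6C defined the gates, so the fall of Ly6c2 to 1067 TPM in APCs is no finding.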

How the data were processed

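RNA of cells pooled across mice was sequenced as 1 library for each of 3 populations. The authors quantified genes with Salmon 0.14.1 (version from the submitters' processing notes) with GENCODE vM22, adding up all transcripts per gene. They deposited estimated counts of reads, which are not normalized, and TPM, which the authors normalized for effective length and library size. The deposited values covered 54432 genes for each monocyte library and 22242 for the APC library, whose other transcript set is not described in the sources used here. Of the listed genes found in GENCODE M21, 40.1% were protein coding for each monocyte library and 97.7% for the APC library. The genes common to all libraries held 84.9% of deposited TPM in marrow monocytes, 85.3% in cord monocytes and 100.0% in APCs. All second-step values compare libraries quantified on these different sets. Depth was 33280643 estimated reads for the bone marrow, 27283795 for the spinal cord monocytes and 28209589 for the APCs.

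The 22238 common genes were compared. TPM was rescaled over them and counts were rounded. The paper called genes by GFold, and its definition was computed anew: gamma posteriors of reads plus 1, median-of-ratios size factors for each pair of libraries, and a call where percentile 1 or 99 lay beyond a 2-fold change. A called gene also had to exceed 3 TPM in at least 1 library. The paper states a limit of 2 on log2 TPM. Here a pseudocount of 1 was assumed in that logarithm, which gives 3 TPM, and without it the limit would be 4 TPM, which was tried as an alternative. The script was tested on simulated data. Gene positions and names were read from GENCODE M21 (GRCm38), which holds 99.0% of the common genes under an identical identifier. The 10 genes and all lists were chosen with earlier results of these data known.

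Named genes were the 10 genes, in each list of related genes the called members with the largest changes (up to 3 per direction and step) and the 2 most abundant, up to 3 most abundant markers per cell type, and the 2 genes nearest in pattern to each called gene. The values of 1 marker gene are not reported here. Defining markers near 0, a marker that the paper remarked on and genes given to complete a count were named beside these. Alternatives were other size factors, reads divided by effective length, other TPM thresholds, priors and bounds, a plain 2-fold change, an assumed spread between libraries, and log2 of TPM plus 1. Values were computed in Python 3.11.15 (scipy 1.17.1, pandas 2.3.3, numpy 2.4.6), and plots drawn with matplotlib 3.10.9. The edgeR package 4.0.16 in R 4.3.3 gave TMM factors only.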

Additional observations from a re-analysis of the deposited data

How the results depend on the processing

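No paired analysis was possible because each population is 1 library. With an assumed spread between libraries, added to the interval as a coefficient of variation of 0.4 or 0.2, the calls among the 10 genes fell to 3 (Abca1, Gpnmb and Spp1) or 5 (also Apoe and Fabp5) in the first step and to 0 in either case in the second. Over all active genes the first step then had 619 or 899 called higher and 222 or 454 lower, and the second 43 or 84 higher and 14 or 35 lower. Without a TPM threshold 2591 were called higher in the first step, and 389 higher and 288 lower in the second. A plain 2-fold change called 322 higher and 290 lower in the second step, and reads divided by effective length called 324 lower. The first step of Tyrobp turned from 0.02 to -0.14 (total reads), -0.024 (reads divided by effective length), -0.25 (log2 of rescaled TPM plus 1) and -0.24 (log2 of deposited TPM plus 1). Abcg1 lost its first-step call with total reads (1.06), with effective length (0.89) and on both TPM scales (0.66 on each). Fabp5 gained a second-step call with effective length (1.08) and on deposited TPM (1.22), but not on rescaled TPM (0.99). Deposited TPM of the monocyte libraries also covers genes that were not listed for APCs. In the second step all 10 genes had a higher value on deposited than on rescaled TPM, such as Apoe with 0.55 and 0.32. The gain of Fabp5 on deposited TPM thus cannot be told apart from this difference in gene sets. In all, 218 of the values under alternatives kept direction and side of the threshold, 18 lost it, 2 gained it and 4 reversed. Part of the 218 could not have changed. An added spread, a stricter bound or a higher TPM threshold can only end a call, so genes not called could not change there. Dropping the TPM threshold could change none of the 10 genes, since all were active in both steps. Summing reads over genes named Fabp5 left its values as they were. The true spread between mice is unknown from 1 pooled library, and genes with few reads, such as Fabp3, have wide counting intervals.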
